A study of Arabidopsis thaliana with 18 samples.

Results

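The 10 genes described here encode GH3 enzymes, acyl acid amido synthetases that join plant hormones to amino acids, and they were chosen by their loci, with no measured value in the rule. They are GH3.1 (AT2G14960), GH3.2 (AT4G37390), GH3.3 (AT2G23170), GH3.4 (AT1G59500), GH3.5 (AT4G27260), GH3.6 (AT5G54510), GH3.9 (AT2G47750), GH3.10 (AT4G03400), GH3.17 (AT1G28130) and JAR1 (AT2G46370), 10 of the 32833 genes in the deposited count table. Of these 10, 9 had enough reads to be tested and 1, GH3.4, had none. RNA of Arabidopsis thaliana hypocotyls was sequenced after poly-A selection in 18 libraries, 3 for each of 6 groups. The groups were the hy1 genotype and the wild type (WT), each at 0 h in darkness, 12 h after a move to light and 24 h after it. HY1 encodes the plastid haem oxygenase that starts synthesis of the phytochrome chromophore, and the series title ties the gene to adventitious rooting in light. The labels name neither the hy1 allele, the WT accession nor the seedlings' age, and the titles of the WT libraries add the word mock. Nothing in them ties the replicates to separate cultures or plants. The p-values therefore measure only the spread between these libraries, which may be technical. No group stayed in darkness for 12 h or 24 h, so light and elapsed time cannot be told apart.

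GH3 enzymes are among the primary auxin response genes. Auxin bound by TIR1/AFB receptors releases ARF transcription factors from repression, and GH3 genes are then transcribed. Many of the enzymes, though not all, conjugate indole-3-acetic acid (IAA) to amino acids, which lowers free auxin. JAR1, also named GH3.11, instead makes jasmonoyl-isoleucine, the active form of jasmonate. In Arabidopsis hypocotyls GH3.3, GH3.5 and GH3.6 are known to act in adventitious root initiation downstream of ARF6, ARF8 and ARF17.

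Library totals ran from 38469946 to 59905064 counts. HY1 itself, AT2G26670, was read in every library. It had 31.6 to 36.3 CPM (counts scaled to the TMM-adjusted total of the library) in hy1 against 42.4 to 47.9 CPM in WT in darkness, 20.2 to 24.3 CPM in hy1 against 23.4 to 34.0 CPM in WT at 12 h, and 18.4 to 19.4 CPM in hy1 against 33.9 to 43.2 CPM in WT at 24 h. The WT libraries in light fell into 2 sets of 3, replicates 2 and 3 at 12 h with replicate 3 at 24 h, and replicate 1 at 12 h with replicates 1 and 2 at 24 h. Pairs across the sets correlated over genes at 0.935 to 0.971, pairs within a set at 0.966 to 0.990, and replicates of every other group at 0.987 to 0.991. Replicate 1 was thus the one least like its group at 12 h and replicate 3 at 24 h, and the labels do not tell which set is the usual one. Results with WT in light were therefore refitted without the first set, called below the fit without the 3 libraries, which leaves 1 WT library at 12 h, assumed to vary like the other groups. They were also refitted without the 2 odd libraries, replicate 1 at 12 h and replicate 3 at 24 h. A member's call that either refit changed is given beside it, and so is a named call of another gene that either refit lost. Neither refit drops a hy1 or a dark library. Calls gained in comparisons among those groups therefore compare the same libraries with another estimate of the spread. In hy1 against WT at 0 h 5154 genes were called with all libraries, 8973 without the 2 and 9154 with these groups fitted alone. These are bulk samples, in which fewer cells of a type and less RNA per cell cannot be told apart.

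The 300 bases before the annotated start were read for each of the 10 genes from the TAIR10.1 assembly, whose nuclear coordinates were those of the count table for 99.95% of 32548 matched genes. They were searched on both strands for TGTCTC, the auxin response element that ARF proteins bind, for its variant TGTCGG and for CACGTG, the G-box of light-regulated promoters. TGTCTC was in 3 of the 10 promoters, those of GH3.2, GH3.3 and GH3.5, and in 13.1% of 32546 promoters of the same length. TGTCGG was in 0 of the 10 and in 4.82% of all promoters. CACGTG was in 1 of the 10, that of GH3.2, and in 6.49% of all promoters. The 3 promoters with TGTCTC are shown because GH3.2, GH3.3 and GH3.5 were all called lower in hy1 than in WT at 0 h and all called higher at 12 h. GH3.6 and GH3.17, called lower in hy1 at 0 h and higher at 24 h, had no match. GH3.10, called higher in hy1 at 12 h and 24 h, had no match either, nor had GH3.1, called lower at 0 h. The dark call of GH3.2 was just past the threshold (edgeR adjusted p = 0.0445). A link between motif and level was not tested. Each is given 5′ to 3′ on the gene's own strand, with matches in capitals. The GH3.2 promoter lies at chr4:17579318-17579617 on the plus strand, with TGTCTC beginning at −144 and CACGTG at −27 from the annotated start. That of GH3.3 lies at chr2:9866563-9866862 on the minus strand, with TGTCTC at −116. That of GH3.5 lies at chr4:13653279-13653578 on the plus strand, with TGTCTC at −47. A match describes these letters and is not a measured binding site, and its absence from the other 7 windows says nothing of the factor.
GH3.2: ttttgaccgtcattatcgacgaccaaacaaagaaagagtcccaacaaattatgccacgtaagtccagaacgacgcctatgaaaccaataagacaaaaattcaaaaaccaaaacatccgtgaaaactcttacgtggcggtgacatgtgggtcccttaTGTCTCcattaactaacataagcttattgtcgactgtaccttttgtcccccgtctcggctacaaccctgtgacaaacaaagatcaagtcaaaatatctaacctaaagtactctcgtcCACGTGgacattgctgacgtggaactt
GH3.3: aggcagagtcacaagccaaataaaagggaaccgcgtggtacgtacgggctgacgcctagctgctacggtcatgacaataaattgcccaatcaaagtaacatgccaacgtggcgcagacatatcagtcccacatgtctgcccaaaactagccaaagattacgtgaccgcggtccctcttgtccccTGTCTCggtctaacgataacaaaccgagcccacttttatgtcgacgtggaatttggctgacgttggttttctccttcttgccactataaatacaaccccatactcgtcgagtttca
GH3.5: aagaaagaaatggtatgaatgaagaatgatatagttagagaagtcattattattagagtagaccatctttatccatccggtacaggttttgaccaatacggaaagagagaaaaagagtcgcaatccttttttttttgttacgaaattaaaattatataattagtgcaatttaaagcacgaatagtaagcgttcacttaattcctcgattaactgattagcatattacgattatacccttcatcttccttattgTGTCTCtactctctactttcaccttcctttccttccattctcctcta

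In darkness 6 of the auxin-conjugating GH3 genes were lower in hy1, and after the move to light several of the 9 tested members were higher in hy1. Of the 9 members tested, 0 rose and 6 fell in hy1 against WT at 0 h (GH3.1, GH3.2, GH3.3, GH3.5, GH3.6 and GH3.17), where 24.6% of all 20955 genes tested were called, 12.2% higher and 12.4% lower. At 12 h 4 members rose (GH3.2, GH3.3, GH3.5 and GH3.10) and 0 fell, where 32.7% of all genes were called, 14.9% higher and 17.8% lower. These 4 calls were kept in both refits, and without the 2 libraries GH3.1, GH3.6 and JAR1 were called lower in addition. At 24 h 5 rose (GH3.3, GH3.5, GH3.6, GH3.10 and GH3.17) and 0 fell, where 20.6% were called, 10.5% higher and 10.2% lower. A gene is called at an adjusted p under 0.05 in edgeR's quasi-likelihood test with Benjamini-Hochberg adjustment over all genes tested. The median log2 fold change of the 9 members was −0.76 at 0 h, 0.37 at 12 h and 0.60 at 24 h, beside −0.01, 0.01 and −0.04 for all genes tested.

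GH3.5, on chromosome 4 at 13653579 to 13656285, encodes an IAA-amido synthetase that also acts on salicylic acid. In darkness it had 104, 114 and 113 CPM in hy1 against 225, 233 and 216 CPM in WT. At 12 h it had 28.7, 31.7 and 27.0 CPM in hy1 against 14.8, 18.6 and 18.04 CPM in WT, and at 24 h 53.6, 61.9 and 62.0 CPM in hy1 against 22.6, 20.5 and 28.5 CPM in WT. The genotypes did not overlap at any time, with hy1 below WT in darkness and above it at both times in light. GH3.5 was 2.03-fold lower in hy1 in darkness (log2 fold change −1.02 ± 0.12 SE, edgeR adjusted p = 3.3e-05). It was 1.70-fold higher in hy1 at 12 h (0.76 ± 0.12, adjusted p = 0.000433) and 2.48-fold higher at 24 h (1.31 ± 0.12, adjusted p = 4.3e-06). It fell in light in both genotypes, by less in hy1. At 12 h against 0 h the log2 fold change was −1.92 ± 0.12 in hy1 (adjusted p = 9.03e-09) and −3.71 ± 0.13 in WT (adjusted p = 1.74e-11), a 13.1-fold fall in WT. The difference between these responses, tested as the interaction of genotype and light, was 1.79 ± 0.17 at 12 h (adjusted p = 2.48e-05), and at 24 h it was 2.33 ± 0.17 (adjusted p = 2.01e-06). From 12 h to 24 h of light GH3.5 rose 2.03-fold in hy1 (adjusted p = 0.000114). Over the 6 groups its order was WT 0 h, hy1 0 h, hy1 24 h, hy1 12 h, WT 24 h and WT 12 h, and of these neighbours hy1 12 h and WT 24 h alone overlapped.

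GH3.3, on chromosome 2 at 9863855 to 9866562, encodes another IAA-amido synthetase and had the largest genotype difference of the 9 members at each time with all libraries, though at 12 h GH3.10 exceeded it without the 3 libraries (1.51 against 1.17 on the log2 scale). In darkness it had 35.9, 32.004 and 54.9 CPM in hy1 against 113, 104 and 96.4 CPM in WT. At 12 h it had 14.5, 17.1 and 14.1 CPM in hy1 against 6.76, 4.12 and 5.83 CPM in WT, and at 24 h 66.0, 46.0 and 74.5 CPM in hy1 against 14.8, 11.9 and 12.1 CPM in WT. Again no library of one genotype lay within the range of the other at the same time, and the direction turned between darkness and light. GH3.3 was 2.54-fold lower in hy1 in darkness (log2 fold change −1.35 ± 0.22 SE, edgeR adjusted p = 0.000355). It was 2.73-fold higher in hy1 at 12 h (1.45 ± 0.22, adjusted p = 0.000327) and 4.80-fold higher at 24 h (2.26 ± 0.22, adjusted p = 6.64e-06). In WT it fell 18.7-fold by 12 h (adjusted p = 1.94e-09) and stayed 8.05-fold below darkness at 24 h (adjusted p = 3.28e-08). In hy1 it fell 2.68-fold by 12 h (adjusted p = 6.44e-05), rose 4.08-fold from 12 h to 24 h (adjusted p = 4.58e-05) and ended 1.52-fold above darkness (adjusted p = 0.0332). The ranges of hy1 at 24 h and at 0 h overlapped, and that last call was lost when hy1 0 h replicate 1 or 2, or hy1 24 h replicate 1 or 3, was left out (adjusted p 0.0972 to 0.139). The interaction was 2.80 ± 0.31 at 12 h (adjusted p = 7.05e-05), and at 24 h it was 3.61 ± 0.31 (adjusted p = 4.9e-06). Its lowest group was WT 12 h and its highest WT 0 h, with hy1 24 h and hy1 0 h next and overlapping.

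GH3.6, on chromosome 5 at 22130964 to 22133688, encodes the IAA-amido synthetase known as DFL1, whose overexpression shortens the hypocotyl. It had 76.5, 74.5 and 75.4 CPM in hy1 against 133, 136 and 114 CPM in WT in darkness. At 12 h it had 54.1, 59.4 and 44.2 CPM in hy1 against 50.9, 85.9 and 59.3 CPM in WT, and at 24 h 57.9, 62.2 and 67.5 CPM in hy1 against 32.5, 28.4 and 36.6 CPM in WT. The genotypes overlapped at 12 h only. GH3.6 was 1.69-fold lower in hy1 in darkness (log2 fold change −0.76 ± 0.16 SE, edgeR adjusted p = 0.00313) and 1.92-fold higher at 24 h (0.94 ± 0.16, adjusted p = 0.00098). At 12 h the difference was −0.31 ± 0.16 (adjusted p = 0.147). It was −0.48 and called without WT 12 h replicate 1 (adjusted p = 0.0174) and without the 2 libraries (adjusted p = 0.00817), and 0.05 without the 3 libraries (adjusted p = 0.854). In WT GH3.6 fell by 0.97 on the log2 scale at 12 h (adjusted p = 0.000142) and by 1.98 at 24 h (adjusted p = 1.15e-07). In hy1 it fell by 0.52 at 12 h (adjusted p = 0.0164, and 0.0919 without hy1 12 h replicate 3) and had a log2 fold change of −0.27 at 24 h (adjusted p = 0.204, and 0.0339 without the 3 libraries). The interaction was 0.45 ± 0.23 at 12 h (adjusted p = 0.195, and 0.81 with an adjusted p of 0.00882 without the 3 libraries and 0.70 with one of 0.0290 without WT 12 h replicate 2, but 0.29 with one of 0.214 without the 2 libraries), and at 24 h it was 1.70 ± 0.23 (adjusted p = 0.000247).

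**Figure D1:**
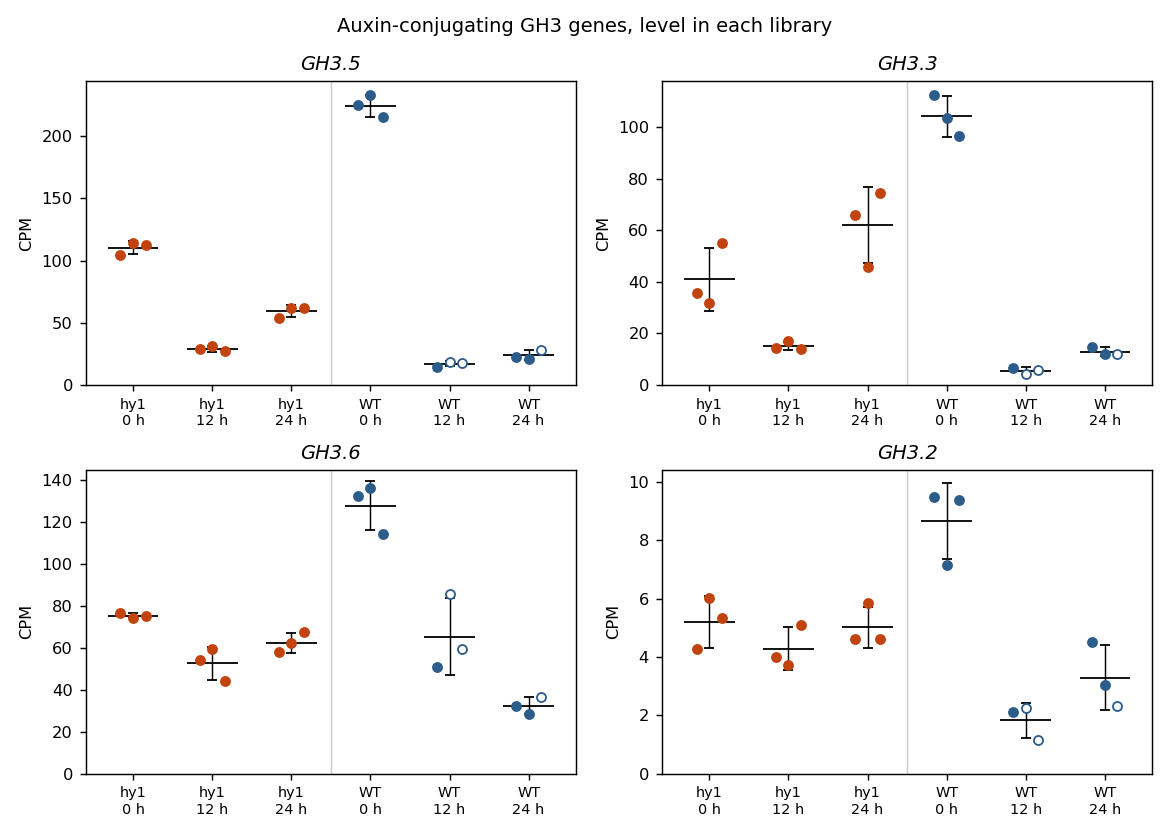
Levels in CPM of GH3.5, GH3.3, GH3.6 and GH3.2, 1 point per library and a line at the mean with SD bars (n = 3), the 3 hy1 groups left of the 3 WT groups; open points are replicates 2 and 3 of WT at 12 h and replicate 3 of WT at 24 h. GH3.5 and GH3.3 lie lower in hy1 than in WT at 0 h and higher in hy1 at 12 h and 24 h, while the genotypes of GH3.6 overlap at 12 h.

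GH3.2 and GH3.1 are low-level auxin-inducible members. GH3.2, an IAA-amido synthetase gene on chromosome 4 at 17579618 to 17582022, had 4.26, 6.002 and 5.32 CPM in hy1 against 9.47, 7.15 and 9.37 CPM in WT in darkness, and 4.004, 3.72 and 5.11 CPM in hy1 against 2.11, 2.25 and 1.15 CPM in WT at 12 h. At both times the genotypes did not overlap, with hy1 lower in darkness and higher at 12 h. The difference in darkness was −0.74 ± 0.25 (log2, SE), just past the threshold in edgeR's test (adjusted p = 0.0445). That call was lost in 5 of the 6 alternatives that left out 1 library of these groups, at adjusted p up to 0.156. It was also lost with no filter (adjusted p = 0.0516) and with the replicate number as a block (adjusted p = 0.0553). At 12 h GH3.2 was 2.34-fold higher in hy1 (adjusted p = 0.00357, and 0.0535 in a fit of these groups alone). At 24 h it had 4.60, 5.83 and 4.61 CPM in hy1 against 4.50, 3.03 and 2.33 CPM in WT, a log2 difference of 0.60 ± 0.26 (adjusted p = 0.111), which passed the threshold without WT 24 h replicate 1 (0.91, adjusted p = 0.0302). In WT GH3.2 fell 4.74-fold by 12 h (adjusted p = 4.97e-06), whereas in hy1 the log2 fold change was −0.28 (adjusted p = 0.401). The interaction was 1.96 ± 0.37 at 12 h (adjusted p = 0.00329), and at 24 h it was 1.34 ± 0.36 (adjusted p = 0.0299, lost in 6 refits without 1 library, at adjusted p up to 0.0748).

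GH3.1, on chromosome 2 at 6451319 to 6453797, had 4.64, 3.139 and 3.96 CPM in hy1 against 7.06, 7.69 and 7.63 CPM in WT in darkness, with no overlap. It was 1.91-fold lower in hy1 there (log2 fold change −0.93 ± 0.17 SE, edgeR adjusted p = 0.00107). In light it had 3.27 to 4.23 CPM in hy1 against 4.21 to 5.66 CPM in WT at 12 h, and 4.68 to 5.34 CPM in hy1 against 4.03 to 5.60 CPM in WT at 24 h. These ranges overlapped between genotypes at both times, with log2 differences of −0.36 ± 0.17 at 12 h (adjusted p = 0.114, and −0.46 with one of 0.0498 without the 2 libraries), and at 24 h it was 0.03 ± 0.17 (adjusted p = 0.911). In WT it fell 1.58-fold by 12 h (adjusted p = 0.00437), while in hy1 the 12 h change was −0.09 (adjusted p = 0.705). The interaction of GH3.1 was 0.57 ± 0.24 at 12 h (adjusted p = 0.126), and at 24 h it was 0.97 ± 0.24 (adjusted p = 0.0207, lost in 3 refits without 1 library, at adjusted p up to 0.0577).

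GH3.17, on chromosome 1 at 9825169 to 9828118, encodes an IAA-amido synthetase that prefers glutamate and, unlike most of the group, is not strongly auxin-inducible. In darkness it had 36.4, 26.6 and 38.7 CPM in hy1 against 60.7, 58.6 and 61.5 CPM in WT. At 12 h it had 48.5, 53.0 and 49.7 CPM in hy1 against 29.8, 45.3 and 41.8 CPM in WT, and at 24 h 73.3, 73.5 and 75.9 CPM in hy1 against 50.5, 43.2 and 55.1 CPM in WT. The genotypes did not overlap at any time, and hy1 at 24 h lay above every library of the other 5 groups. GH3.17 was 1.78-fold lower in hy1 in darkness (log2 fold change −0.83 ± 0.15 SE, edgeR adjusted p = 0.000893) and 1.50-fold higher at 24 h (0.58 ± 0.15, adjusted p = 0.0125, and 0.0554 without WT 24 h replicate 2). At 12 h the difference was 0.37 ± 0.15 (adjusted p = 0.0669) and passed the threshold without the 3 libraries (0.76, adjusted p = 0.00475) or without WT 12 h replicate 2 alone (0.49, adjusted p = 0.0466), while it was 0.20 without the 2 libraries (adjusted p = 0.169). GH3.17 went in opposite directions in the genotypes at 12 h of light. It rose 1.49-fold in hy1 (adjusted p = 0.00552) and fell 1.55-fold in WT (adjusted p = 0.00235; log2 fold change −0.63, and −1.02 without the 3 libraries), with an interaction of 1.20 ± 0.21 (adjusted p = 0.00215). At 24 h it had risen 2.19-fold in hy1 (adjusted p = 1.95e-05). Its log2 fold change in WT was then −0.28 (adjusted p = 0.135), and the fall was called without the 3 libraries (−0.36, adjusted p = 0.0179) and without the 2 (−0.38, adjusted p = 0.0122). The interaction at 24 h was 1.41 ± 0.21 (adjusted p = 0.000552).

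GH3.10, on chromosome 4 at 1497536 to 1501599, is DFL2, first described from its effect on hypocotyl length in red light. It had 9.99, 8.18 and 8.88 CPM in hy1 against 12.6, 13.5 and 11.5 CPM in WT in darkness. In light it had 8.80, 9.41 and 12.1 CPM in hy1 against 3.56, 5.36 and 4.22 CPM in WT at 12 h, and 9.84, 13.6 and 11.5 CPM in hy1 against 5.64, 4.28 and 4.45 CPM in WT at 24 h. No genotype pair overlapped, and the 3 hy1 groups overlapped each other across times. The dark difference was −0.48 ± 0.17 (edgeR adjusted p = 0.0565), and it was called in a fit of these groups alone (adjusted p = 0.00727) and without the 3 libraries or the 2 (adjusted p = 0.0171 and 0.0189). GH3.10 was 2.31-fold higher in hy1 at 12 h (adjusted p = 0.000234) and 2.43-fold higher at 24 h (adjusted p = 0.000154). In WT it fell 2.87-fold by 12 h (adjusted p = 3.89e-06), while its change in hy1 was 0.16 (adjusted p = 0.476). At 24 h against 0 h in hy1 it was 0.37 (adjusted p = 0.103), called in both refits (adjusted p = 0.0442 without the 3 and 0.0447 without the 2). The interaction was 1.68 ± 0.25 at 12 h (adjusted p = 0.000569), and at 24 h it was 1.76 ± 0.25 (adjusted p = 0.000337). Of its 3518 exon bases, 432 (12.3%) are shared with AT4G03410, annotated on the opposite strand, and the counting ignored strand and dropped reads that fell in both genes.

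JAR1 and GH3.9 did not follow these patterns. JAR1, on chromosome 2 at 19033586 to 19036683, averaged 91.3 ± 3.33, 75.5 ± 8.90 and 93.0 ± 1.02 CPM in hy1 at 0 h, 12 h and 24 h, against 78.8 ± 1.86, 87.7 ± 9.43 and 88.5 ± 9.79 CPM in WT (SD, n = 3 each). Its genotype differences were between −0.22 and 0.21 on the log2 scale, with edgeR adjusted p from 0.123 to 0.678, and none of the 3 was called. The dark difference was called without the 3 libraries (0.21, adjusted p = 0.0316), without the 2 (0.20, adjusted p = 0.0409) and in a fit of these groups alone (0.22, adjusted p = 0.0177), and the 12 h difference without WT 12 h replicate 1 (−0.31, adjusted p = 0.0236) and without the 2 libraries (−0.31, adjusted p = 0.00429). Without the 2 libraries JAR1 was also called higher in WT at 12 h against 0 h (0.25, adjusted p = 0.0166, beside 0.227 with all libraries), and its 12 h interaction was called (−0.52, adjusted p = 0.00132, beside 0.0663 with all). From 12 h to 24 h in hy1 it was called higher in both refits (adjusted p = 0.0132 without the 3 and 0.0117 without the 2, beside 0.130 with all). With all libraries 1 change was called for JAR1, a fall by 0.27 on the log2 scale in hy1 at 12 h against 0 h (adjusted p = 0.0446), which was lost in each of the 6 refits that left out a library of these groups (adjusted p 0.052 to 0.242). GH3.9, on chromosome 2 at 19560127 to 19563960, is known from work on root growth and was barely read. It had 10, 2 and 6 counts in hy1 against 12, 4 and 11 counts in WT at 0 h, 52, 56 and 51 counts in hy1 against 32, 40 and 44 counts in WT at 12 h, and 23, 24 and 36 counts in hy1 against 78, 26 and 28 counts in WT at 24 h. It was the only member called higher in light in both genotypes at 12 h and at 24 h, with log2 fold changes of 2.90 ± 0.52 in hy1 (adjusted p = 0.000298) and 2.11 ± 0.50 in WT (adjusted p = 0.00231) at 12 h. AT2G09955 overlaps 264 of its 2924 exon bases (9.03%). GH3.4, on chromosome 1 at 21854493 to 21856614, had 0 reads in all 18 libraries, and 1.40% of its 50-base stretches recur elsewhere in the genome.

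**Figure D2:**
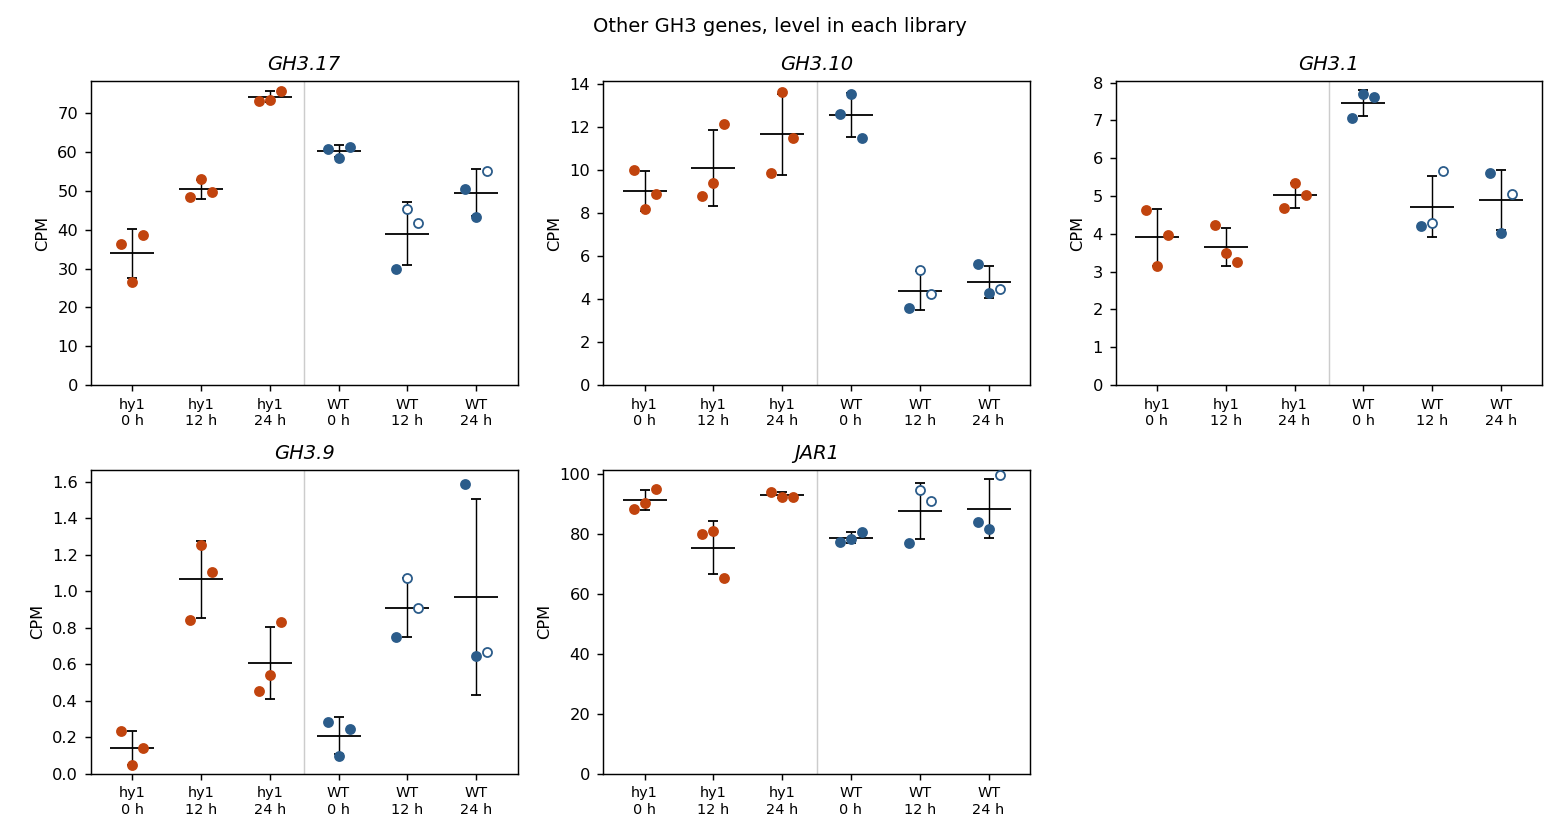
Levels in CPM of GH3.17, GH3.10, GH3.1, GH3.9 and JAR1, 1 point per library and a line at the mean with SD bars (n = 3), the 3 hy1 groups left of the 3 WT groups; open points are replicates 2 and 3 of WT at 12 h and replicate 3 of WT at 24 h. Mean GH3.10 is 9.02 to 11.7 CPM in hy1 at the 3 times, against 12.5, 4.38 and 4.79 CPM in WT at 0 h, 12 h and 24 h, and JAR1 lies between 65.2 and 99.8 CPM in every library.

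**Figure D3:**
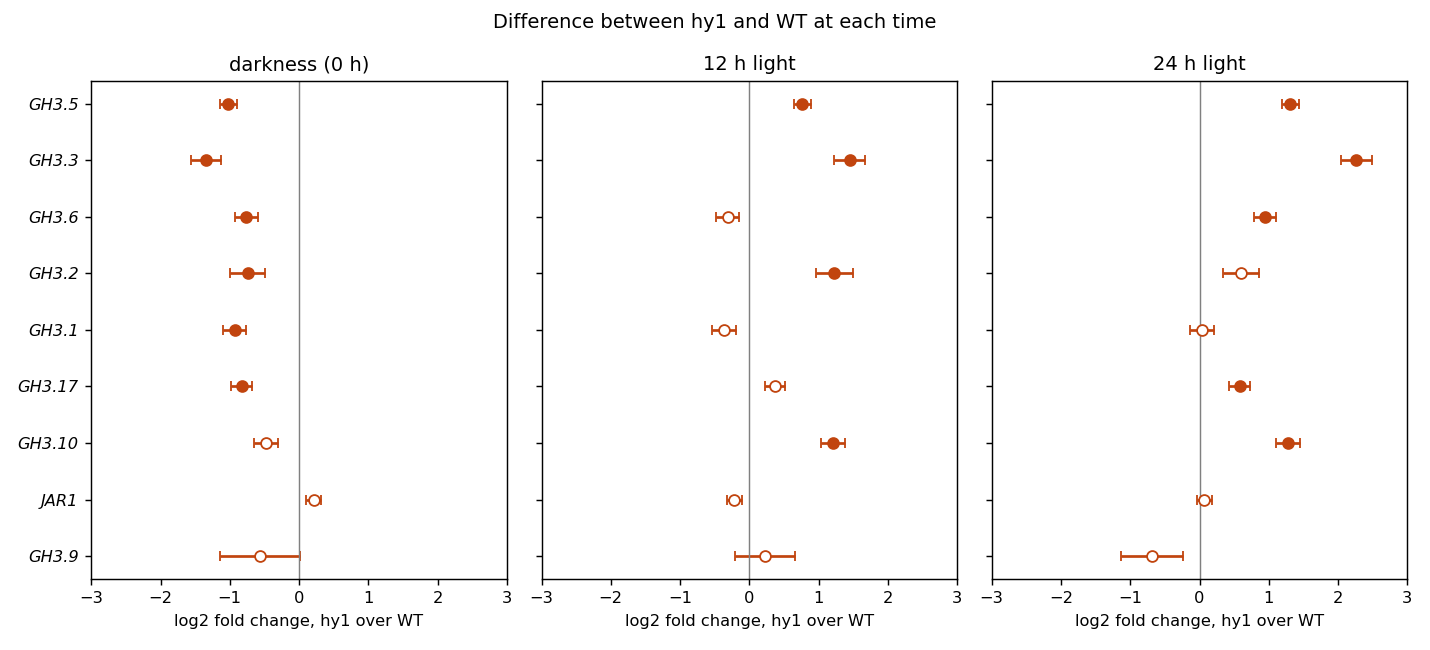
Log2 fold change of hy1 over WT for the 9 tested members at 0 h, 12 h and 24 h, with SE bars; open points are not called. GH3.3 lies at −1.35, 1.45 and 2.26, and JAR1 lies between −0.22 and 0.21.

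Against darkness, most members fell in light in WT and fewer did in hy1. In WT at 12 h 1 member rose (GH3.9) and 7 fell (GH3.1, GH3.2, GH3.3, GH3.5, GH3.6, GH3.10 and GH3.17), where 53.6% of all genes were called, 28.3% higher and 25.3% lower. In WT at 24 h 1 rose (GH3.9) and 6 fell (the same members without GH3.17), where 47.7% were called, 24.6% higher and 23.1% lower. In hy1 at 12 h 2 rose (GH3.9 and GH3.17) and 4 fell (GH3.3, GH3.5, GH3.6 and JAR1), where 44.2% were called, 22.9% higher and 21.3% lower. In hy1 at 24 h 3 rose (GH3.3, GH3.9 and GH3.17) and 1 fell (GH3.5), where 40.5% were called, 20.4% higher and 20.1% lower. The members' median log2 fold change was −0.27 in hy1 and −0.97 in WT at 12 h, and 0.36 in hy1 and −1.39 in WT at 24 h, beside medians over all genes between −0.01 and 0.02. The share of members called in hy1 at 24 h, 4 of 9, was near that of all genes.

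Between 12 h and 24 h of light 3 members rose and 0 fell in hy1 (GH3.3, GH3.5 and GH3.17), where 4.89% of all genes were called, 2.35% higher and 2.54% lower. In WT 2 rose (GH3.3 and GH3.5) and 1 fell (GH3.6), where 9.08% were called, 3.67% higher and 5.41% lower. The WT changes were 1.21 for GH3.3, 0.48 for GH3.5 and −1.01 for GH3.6 on the log2 scale, and in an edgeR fit of these groups alone none was called while 3 members had an unadjusted p under 0.05. The GH3.5 call was also lost without WT 12 h replicate 3 or WT 24 h replicate 1 or 3 (adjusted p 0.0552 to 0.0585) or without the 2 libraries (0.21, adjusted p = 0.0863), and the GH3.3 call without the 3 libraries (adjusted p = 0.113). GH3.17 was called higher without the 3 libraries (0.65, adjusted p = 0.0363) and GH3.2 without the 2 (1.15, adjusted p = 0.00391). The GH3.17 rise in hy1, 0.56 ± 0.15 (adjusted p = 0.0406), was lost in each of the 6 refits without 1 library of these groups (adjusted p 0.0911 to 0.137).

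The interaction of genotype and light was called for 5 members at 12 h, all higher, where 13.5% of all genes were called, 6.73% higher and 6.80% lower. It was called for 7 at 24 h, all higher, where 8.67% were called, 5.18% higher and 3.49% lower. A positive value means that the gene fell less in light, or rose more, in hy1 than in WT, and these values share their libraries with the comparisons above. Median interaction over the 9 members was 1.20 at 12 h and 1.41 at 24 h, beside 0.02 and −0.02 over all genes tested. Without the 3 libraries the interaction at 12 h was 2.52 for GH3.3, 2.003 for GH3.5, 1.98 for GH3.10, 1.76 for GH3.2 and 1.59 for GH3.17, all called. At 24 h without them it was 3.56 for GH3.3, 2.48 for GH3.5, 1.80 for GH3.6, 1.70 for GH3.10, 1.49 for GH3.17, 1.14 for GH3.2 and 0.99 for GH3.1, all called. The hy1 over WT differences without them at 12 h were 0.98 for GH3.5, 1.17 for GH3.3, 1.02 for GH3.2 and 1.51 for GH3.10, all called, and at 24 h 1.46 for GH3.5, 2.21 for GH3.3, 1.04 for GH3.6, 1.23 for GH3.10 and 0.66 for GH3.17, all called. Without the 2 libraries these 9 genotype calls and 12 interaction calls were kept as well.

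**Figure D4:**
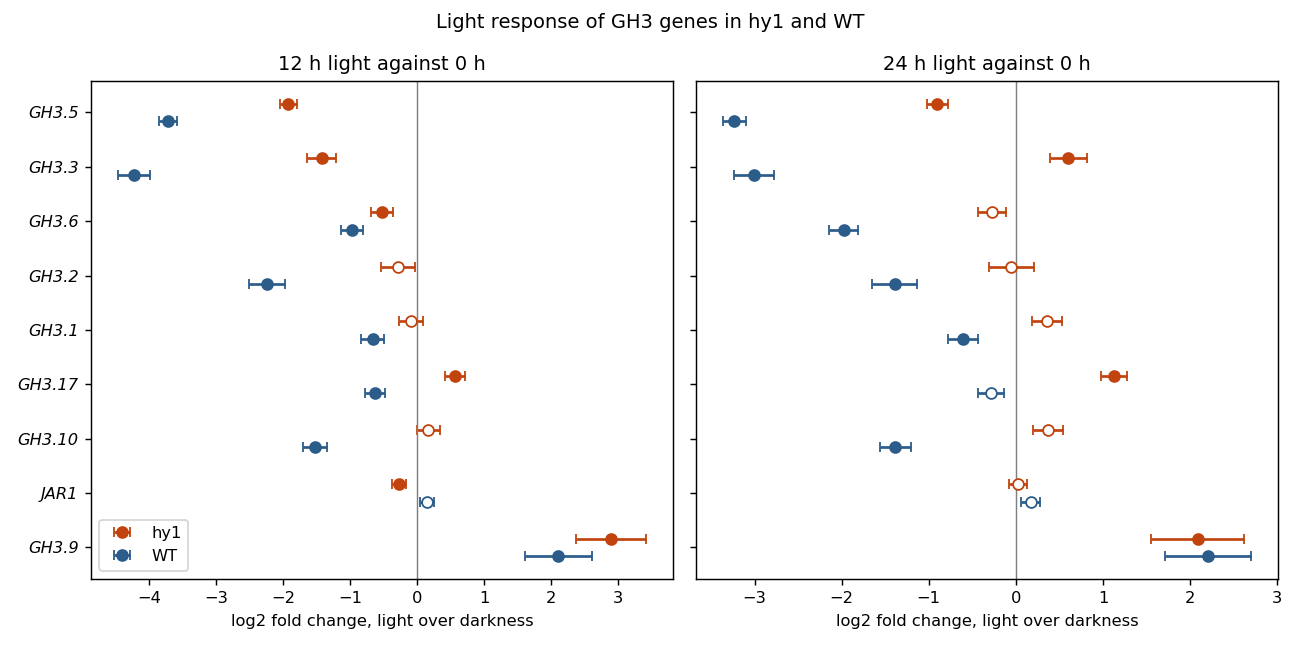
Log2 fold change against darkness at 12 h and 24 h for the 9 tested members, hy1 above WT, with SE bars; open points are not called. GH3.3 lies at −1.42 and 0.60 in hy1 and at −4.22 and −3.01 in WT, and GH3.17 lies at 0.57 and 1.13 in hy1 and at −0.63 and −0.28 in WT.

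Per length, as RPKM (CPM divided by the gene's exon length in kilobases), the make-up of transcripts of the 10 genes shifted with light. Other GH3 family genes were left out, and of these AT5G13370 averaged 5.14 and 20.4 RPKM in WT at 0 h and 12 h. AT5G13360 averaged 4.09 and 12.0 RPKM there, while AT1G48670 went from 2.78 to 0.729 RPKM. The 10 genes summed to 151 ± 9.37, 95.2 ± 7.93 and 151 ± 8.20 RPKM in hy1 at 0 h, 12 h and 24 h, against 261 ± 10.3, 89.0 ± 14.2 and 86.3 ± 9.08 RPKM in WT (SD, n = 3 each). In darkness GH3.5 had the highest level in both genotypes, at 46.9 ± 2.27 RPKM in hy1 and 95.3 ± 3.74 RPKM in WT. It made up 31.0% of the summed level in hy1 and 36.4% in WT in darkness, 13.0% in hy1 and 8.21% in WT at 12 h, and 16.7% in hy1 and 11.7% in WT at 24 h. JAR1 made up 22.2% in hy1 and 11.1% in WT in darkness, 29.1% in hy1 and 36.4% in WT at 12 h, and 22.7% in hy1 and 37.7% in WT at 24 h. At 24 h GH3.3 made up 19.4% in hy1 and 7.12% in WT. By group means the largest single member of the sum in WT was GH3.5 in darkness and JAR1 in light. At 12 h in WT GH3.6 exceeded JAR1 in replicate 2 (37.0 against 34.9 RPKM) and lay below it in replicates 1 and 3. Beside JAR1 in WT, GH3.6 made up 31.3% at 12 h and GH3.17 21.0% at 24 h. JAR1 itself had 28.9, 32.2 and 32.5 RPKM in WT at 0 h, 12 h and 24 h, so its share grew as the sum fell.

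**Figure D5:**
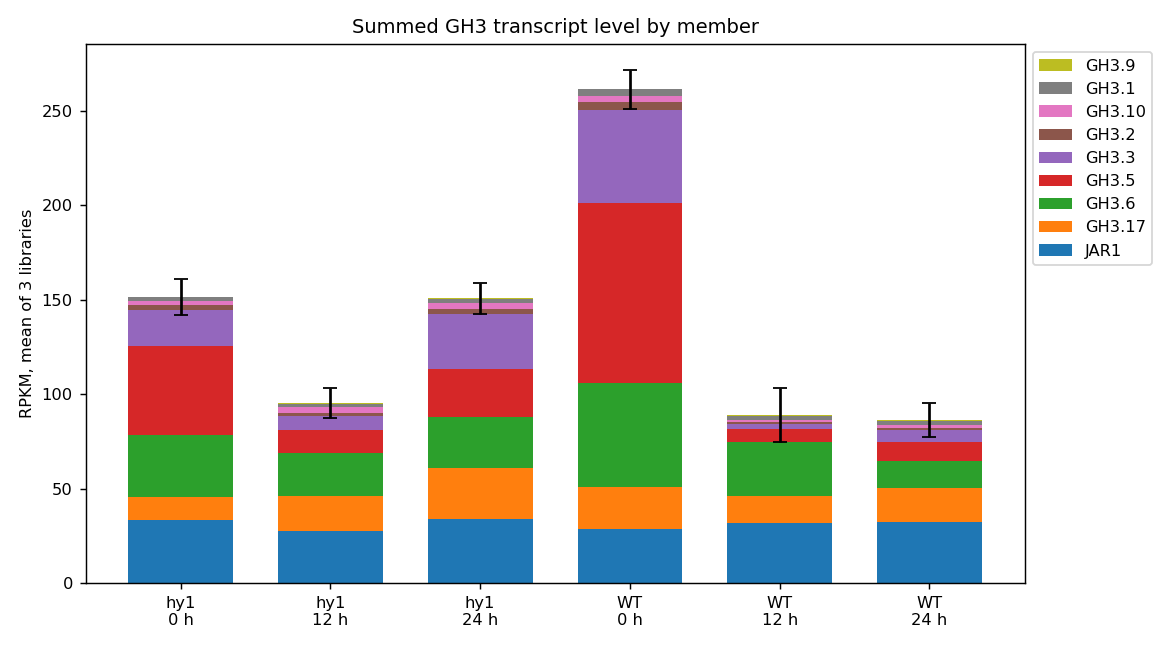
Mean RPKM of the 9 members with reads stacked by group, the 3 hy1 groups left of the 3 WT groups, with SD bars on the sum (n = 3). Other GH3 family genes are not included. The sum is 151, 95.2 and 151 RPKM in hy1 at 0 h, 12 h and 24 h, against 261, 89.0 and 86.3 RPKM in WT, and JAR1 keeps 27.7 to 34.2 RPKM throughout.

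Over the 18 libraries, which share 6 groups, GH3.3 and GH3.5 had the highest correlation of log2 CPM among members (r = 0.909), followed by GH3.2 with GH3.3 (0.859), GH3.2 with GH3.10 (0.832) and GH3.2 with GH3.5 (0.831). JAR1 correlated with its closest member, GH3.17, at 0.0667. Among tested genes whose mean reached 5 CPM, the closest to GH3.5 were HAT2, a homeodomain-leucine zipper gene of shade and auxin response (0.989), and AT5G12940 (0.985). Closest to GH3.3 were AT3G49810 (0.951) and RTFL17 (0.947), and to GH3.6 ORP2A (0.947) and WSD1 (0.945). GH3.2 was most like AT3G01490 (0.942) and CYP86A8 (0.923), and GH3.10 most like HB6 (0.940) and AT2G45340 (0.934). GH3.1 was closest to AT2G32450 (0.907) and ABCB2 (0.877), GH3.9 to CPZ (0.941) and CS26 (0.935), GH3.17 to AT1G69160 (0.858) and AAPT2 (0.842), and JAR1 to PEN2 (0.887) and AT1G69450 (0.876).

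Of 9 other GH3 family genes, 4 were tested. Counts for this list and those below stand beside the shares of all genes called that are given above for each comparison. In hy1 against WT these were 24.6% at 0 h, 32.7% at 12 h and 20.6% at 24 h. In hy1 against WT 2 of the 4 rose and 1 fell in darkness, and 1 fell at each time in light, AT5G13360 (at 12 h adjusted p = 0.0226, and 0.0795 without the 3 libraries). AT5G13370 averaged 24.9 ± 3.498, 49.7 ± 3.52 and 35.7 ± 2.24 CPM in hy1 at 0 h, 12 h and 24 h, against 11.7 ± 1.99, 46.6 ± 4.50 and 36.4 ± 4.27 CPM in WT (SD, n = 3 each). Its interaction was −0.99 ± 0.19 at 12 h (edgeR adjusted p = 0.0042), and at 24 h it was −1.11 ± 0.19 (adjusted p = 0.00172), and that of AT5G13360 −1.06 ± 0.14 (adjusted p = 0.000307) and −1.03 ± 0.14 (adjusted p = 0.000292), negative where the called members were positive. In light against darkness AT5G13360 and AT5G13370 rose and AT1G48670 fell in both genotypes at both times. AT1G48660, under 1 CPM, was lower in hy1 in darkness (−3.01 ± 0.77, adjusted p = 0.01) and had interactions of 4.19 and 3.71.

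Amidohydrolases release free hormone from amino acid conjugates such as those that GH3 enzymes make. The list does not separate those that act on IAA conjugates from those that act on other hormones. Of 7 listed, 6 were tested. Over all genes, 6853 were called in hy1 against WT at 12 h with all libraries and 12311 without the 2. In hy1 against WT 1 rose in darkness, ILR1, 5 rose at 12 h (ILR1, ILL1, ILL2, ILL3 and ILL6) and 3 rose at 24 h (ILR1, IAR3 and ILL6), with 0 lower at any time. The 12 h count of 5 was 2 without the 3 libraries, ILR1 and ILL3, and 6 without the 2, with IAR3 added, and in darkness ILL6 was called lower in both refits. In WT 5 fell at 12 h against darkness (ILR1, ILL2, ILL3, IAR3 and ILL6; IAR3 was lost without the 3 libraries) and 4 at 24 h. In hy1 1 fell at each time, ILR1. ILL6 averaged 30.5 ± 2.704, 23.3 ± 2.62 and 28.5 ± 2.24 CPM in hy1 at 0 h, 12 h and 24 h, against 37.5 ± 0.955, 13.9 ± 3.69 and 16.7 ± 3.32 CPM in WT (SD, n = 3 each). Its interaction was 1.04 ± 0.24 at 12 h (edgeR adjusted p = 0.0107), and at 24 h it was 1.08 ± 0.24 (adjusted p = 0.00952), and IAR3 was called at 24 h (0.62 ± 0.16, adjusted p = 0.0263).

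Of 6 listed genes of auxin oxidation, glucosylation and methylation, 4 were tested, and in hy1 against WT 1 rose and 2 fell in darkness, 1 rose and 1 fell at 12 h, and 0 were called at 24 h. The fall at 12 h, of UGT74E2, was −1.27 with all libraries (adjusted p = 0.0185) and −0.64 without the 3 (adjusted p = 0.290). AT1G14120, a 2-oxoglutarate and Fe(II)-dependent oxygenase, averaged 9.53 ± 1.01 CPM in hy1 against 30.1 ± 3.45 CPM in WT in darkness (log2 fold change −1.66 ± 0.13 SE, edgeR adjusted p = 1.41e-06). UGT74E2, which glucosylates the auxin precursor indole-3-butyric acid, had 1.42 ± 0.738 CPM in hy1 against 25.3 ± 3.92 CPM in WT in darkness (−4.16 ± 0.43, adjusted p = 1.11e-05). Against darkness, AT1G14120 rose in both genotypes at both times, and AT1G14130, of the same annotation, rose in hy1 (0.46 at 12 h and 0.36 at 24 h). IAMT1, which methylates IAA, was higher in hy1 in darkness (1.19 ± 0.32, adjusted p = 0.0139) and at 12 h (1.83 ± 0.33, adjusted p = 0.00112). UGT74D1 shares 98.8% of its exon bases with AT2G31751 and had 0 reads, so it could not be measured.

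All 11 listed receptors and response factors upstream of GH3 genes were tested. In hy1 against WT 1 of the 11 rose in darkness (ARF17, 0.44 ± 0.15), 2 rose and 4 fell at 12 h, and 2 rose at 24 h. AFB1, an auxin receptor, had 22.8 to 29.8, 12.1 to 12.6 and 13.5 to 14.6 CPM in hy1 at 0 h, 12 h and 24 h, against 37.7 to 44.3, 3.23 to 7.07 and 3.57 to 8.39 CPM in WT (n = 3 each). It was the 1 of the 11 with a called interaction with all libraries, 1.96 ± 0.36 at 12 h (edgeR adjusted p = 0.00291), and at 24 h it was 1.91 ± 0.36 (adjusted p = 0.003). AFB1 shares 474 of its 2324 exon bases (20.4%) with other genes, and AFB3 31.4% of its own, and reads that fell in 2 genes were dropped. At 12 h TIR1 was higher in hy1 (0.43 ± 0.13, adjusted p = 0.0218), and ARF5, ARF6, ARF7 and ARF19 were lower, at −1.11 to −0.31 on the log2 scale. None of these 5 was called without the 3 libraries (adjusted p 0.145 to 0.950), where ARF19 was 0.01 and TIR1 0.15, and all 5 were called without the 2 libraries, where ARF19 was −1.47 and TIR1 0.59. Against darkness AFB2 fell in both genotypes at both times, AFB3 was called lower in hy1 at both times and in WT at 24 h, and ARF8 rose in hy1 (0.39 at 12 h and 0.38 at 24 h).

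The product of JAR1, jasmonoyl-isoleucine, is removed in part by CYP94 hydroxylases. Of 7 listed genes of jasmonate turnover, CYP94 genes among them, all were tested. In hy1 against WT 2 rose and 1 fell in darkness, 0 rose and 3 fell at 12 h, and 0 were called at 24 h. CYP94B3 averaged 123 ± 85.4 CPM in hy1 against 10.3 ± 3.164 CPM in WT in darkness (log2 fold change 3.57 ± 0.46 SE, edgeR adjusted p = 6.14e-05), and CYP94B1 11.6 ± 2.07 CPM in hy1 against 31.4 ± 4.48 CPM in WT (−1.44 ± 0.19, adjusted p = 8.41e-05). AT5G05600 was higher in hy1 in darkness (0.69, adjusted p = 0.0219), and CYP94B1, AT3G11180 and AT3G55970 were lower in hy1 at 12 h. Of these 3 CYP94B1 alone was called without the 3 libraries, where AT3G11180 was −0.38 and AT3G55970 −0.47 (adjusted p = 0.237 and 0.663). CYP94C1 fell against darkness in both genotypes at both times, and AT2G38240, under 1 CPM, rose at 12 h in both. Among 6 jasmonate response genes 5 were tested, and in hy1 2 rose (COI1 and VSP1) and 1 fell (VSP2) in darkness, 1 rose at 12 h (COI1; adjusted p = 0.0365, and 0.123 without the 3 libraries) and 0 were called at 24 h. VSP1, a vegetative storage protein gene that jasmonate induces, had 23.6 ± 3.04 CPM in hy1 against 6.73 ± 1.77 CPM in WT in darkness (1.81 ± 0.25, adjusted p = 9.94e-05). MYC4 rose against darkness in WT at both times and in hy1 at 24 h. MYC2 shares 98.5% of its exon bases with AT1G32630 and had 0 reads, so it could not be measured.

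Markers of other cell types were read in the same libraries. The 4 root hair and root cap markers summed to at most 0.622 CPM in any library, so their defining genes were near 0. The 3 shoot meristem markers summed to 14.0 to 15.9, 16.9 to 24.1 and 15.2 to 19.6 CPM in hy1 at 0 h, 12 h and 24 h, against 18.5 to 27.5, 4.87 to 10.3 and 3.24 to 8.75 CPM in WT. Nearly all of this was STM, since WUS reached 0.0969 CPM and CLV3 0.482 CPM at most. STM shared part of the pattern of GH3.3 and GH3.5. It was higher in hy1 at 12 h (1.58) and 24 h (1.52), fell in WT at both times, and had interactions of 2.16 and 2.11. Unlike them, with all libraries it was not called in hy1 against WT in darkness (−0.59) or in hy1 at 12 h against 0 h (0.46). The 6 stomatal lineage markers summed to 1.22 to 2.15, 12.7 to 21.1 and 4.86 to 9.52 CPM in hy1 at 0 h, 12 h and 24 h, against 3.96 to 7.33, 4.22 to 14.5 and 3.64 to 7.35 CPM in WT. The 3 root meristem markers summed to 3.64 to 4.73, 2.33 to 3.55 and 4.01 to 6.93 CPM in hy1, against 0.761 to 1.13, 1.12 to 1.92 and 2.50 to 3.76 CPM in WT at the same times. The stomatal lineage markers did not move together, and of 4 tested 1 was called higher and 1 lower in hy1 at 12 h. FAMA then averaged 0.79 CPM in hy1 against 2.78 CPM in WT, and TMM 7.80 against 1.24 CPM. SPCH ranged from 0.577 to 9.16 CPM in WT at 12 h. The part of these cell types in the GH3 results was not tested.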

How the data were processed

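Whole-number read counts per gene were deposited by the authors. Per the file headers they were made with featureCounts 2.0.3, counting each mate of a pair as 1 read, ignoring strand, leaving out reads that mapped to several places and dropping reads that fell in 2 genes. The submitters' processing notes also name STAR 2.7.8a, HTSeq and StringTie 2.1.3, without saying for what. Of 32833 genes 6452 had no read. A deposited table of FPKM was not used.

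From the counts, 1 edgeR 4.0.16 quasi-likelihood model in R 4.3.3 (limma 3.58.1) (TMM scaling, 1 mean per group for 6 groups) was fitted to all 18 libraries, after filterByExpr, which kept 20955 genes. Tests were two-sided, with Benjamini-Hochberg adjustment over all genes separately in each of 11 comparisons. CPM and RPKM were computed with TMM-scaled library sizes and deposited exon lengths. DESeq2 1.42.0 was an alternative. Library totals ran from 38469946 to 59905064 counts. All 10 members, called genes of the fixed lists, and the 2 genes most like each member were named. The members and lists were chosen with earlier results of these data known. Gene names follow the reference annotation, and loci are given where it has none.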

Additional observations from a re-analysis of the deposited data

Results flagged for a closer look

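The light response of GH3 members differed between the genotypes in the test of the difference itself, the interaction of genotype and light in edgeR, with positive values where the gene fell less in light or rose more in hy1 than in WT. At 12 h the log2 difference was 1.96 for GH3.2, 2.80 for GH3.3, 1.79 for GH3.5, 1.68 for GH3.10 and 1.20 for GH3.17. At 24 h it was 0.97 for GH3.1, 1.34 for GH3.2, 3.61 for GH3.3, 2.33 for GH3.5, 1.70 for GH3.6, 1.76 for GH3.10 and 1.41 for GH3.17. Among the refits that left out 1 library, the call of GH3.1 at 24 h was lost in 3 and that of GH3.2 at 24 h in 6, and the other 10 calls held in all of them.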

How the results depend on the processing

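Of 58 member calls, 46 held under every alternative that tested the gene. The alternative with a mean of at least 5 CPM did not test GH3.1, GH3.2 and GH3.9, so their calls were not checked there. Of 1560 member values recomputed, 1451 kept direction and side of the threshold, 47 lost the call, 40 gained one and 22 changed sign, and none of these 22 was called. The count of members called moved by over 1.5 times in 4 of 177 recomputations. Without the 2 odd libraries of WT in light, chosen after seeing the data, 7 were called in hy1 against WT at 12 h (4 otherwise). With a mean of at least 5 CPM, which drops low members, 5 were called in WT at 12 h against 0 h (8 otherwise) and 4 at 24 h (7 otherwise). With groups compared alone 0 were called in WT at 24 h against 12 h (3 otherwise, and 3 at unadjusted p under 0.05), and 111 of all genes against 1902. Leaving out 1 library gave 2 to 4 members there.

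Values that changed sign when 1 library was left out ranged, for WT at 24 h against 12 h, from −0.0607 to 0.206 for GH3.1, −0.469 to 0.320 for GH3.9, −0.00770 to 0.294 for GH3.10 and −0.101 to 0.0718 for JAR1. They ranged from −0.226 to 0.0334 for GH3.1 in hy1 at 12 h against 0 h, and in hy1 at 24 h against 0 h from −0.184 to 0.0817 for GH3.2 and −0.00310 to 0.0654 for JAR1. GH3.1 in hy1 against WT at 24 h ranged from −0.0914 to 0.151, and the GH3.9 interaction at 24 h from −0.510 to 0.467. In WT at 24 h against 12 h without the 2 libraries, GH3.1 was −0.0753 and JAR1 −0.193. Without the 3 libraries, also chosen after seeing the data, GH3.6 in hy1 against WT at 12 h was 0.0491 and JAR1 in WT at 12 h against 0 h was −0.0324. The cause was not tested. The count over all genes moved by over 1.5 times in 42 of 177 recomputations. For WT at 24 h against 12 h it was 8279 without WT 12 h replicate 1, 5443 without WT 24 h replicate 3, 11326 without both and 964 without the 3 libraries. For hy1 against WT at 12 h it was 6853 with all libraries, 12311 without the 2 and 4085 without the 3.

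The labels do not say that replicate numbers pair the libraries. Same-numbered libraries of different groups deviated together at r from −0.286 to 0.584 (median 0.0192), and differently numbered ones at −0.735 to 0.518 (median −0.00846). Of 18 libraries 9 correlated best with their own number. These values do not settle whether the numbers pair the libraries. With the replicate number as a block, 5 members were called in hy1 against WT at 0 h (6 without the block) and 5 in hy1 at 12 h against 0 h (6 without). Depth limits GH3.4, with 0 counts in every library, and GH3.9, at 2 to 78 counts a library.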
